A study of Drosophila melanogaster with 4 samples.

Results

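The genes described here are the proneural transcription factors of the fly and the proteins that pair with them or oppose them: ato, ac, sc, l(1)sc, ase, amos, da, emc and h. They were chosen by name. A probe was taken when the platform annotation gave it exactly 1 gene symbol and that symbol was on the list. By this rule 8 of the 9 genes were found, each with 1 probe. The ninth, hairy, stands in the annotation as hry, for which RefSeq lists h as a synonym, and its 1 probe was added on that ground. The 9 genes were among 12236 with such a probe on the array.

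The study asked which mRNAs the SR-family splicing factor dASF/SF2 binds in the developing eye of Drosophila melanogaster. RNA was recovered with an anti-GFP antibody (an immunoprecipitation, IP) from larvae of 2 genotypes. One was GMR X GFP-dASF/SF2. The other, GMR X GFP-NLS, was the control, in which GFP carries a nuclear localisation signal. In both, the GMR driver controls the transgene and is active in the eye disc in cells that the morphogenetic furrow, the moving front of differentiation, has already passed. Each extract pooled the anterior ends of 600 third-instar larvae, so it also held RNA from brain, other discs, muscle, salivary gland and fat body. The RNA that was bound is from larvae that express a tagged transgene, and the endogenous protein was not the one precipitated. Both IPs were hybridised together on every array. On 2 arrays RNA of the dASF/SF2 IP carried Cy5 (Cy5 arrays 1 and 2, numbered by replicate) and on 2 the dyes were exchanged (Cy3 arrays 1 and 2). The arrays of 1 replicate number are dye swaps, which gave 2 replicates. The labels do not say that the replicates came from separate cultures, so the spread behind each p-value may be technical.

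Proneural proteins are basic helix-loop-helix (bHLH) transcription factors that give cells the ability to become neural precursors. They act as dimers with the widely expressed bHLH protein Daughterless. Extra macrochaetae, an HLH protein without a DNA-binding basic region, opposes them by forming inactive dimers, and Hairy opposes them as a DNA-binding repressor. In the eye disc atonal is the proneural gene of the founder photoreceptor R8. It is switched on ahead of and within the furrow, and Hairy and Extra macrochaetae hold it back ahead of the furrow. The genes of the achaete-scute complex serve bristles and the central nervous system.

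The values are log ratios of the 2 channels as deposited. Neither their base nor their numerator is stated by the labels or the files, so sizes are in log-ratio units and no fold change is printed. The median of each array was set to 0, and the Cy3 arrays had their signs reversed ("turned"), so that all 4 arrays point to the same sample if the values are Cy5 over Cy3 or Cy3 over Cy5. Across the 12847 probes measured on all 4 arrays, the dye-swapped arrays of replicate 1 correlated above 0 before turning (Pearson r 0.236, Spearman rho 0.191). Those of replicate 2 correlated below 0, weakly by Pearson's r (-0.054) and clearly by Spearman's rho (-0.467). Arrays of 1 orientation correlated with an r of 0.435 and a rho of 0.502 (Cy5), and of 0.264 and 0.309 (Cy3). Arrays of opposite orientation and different replicate number correlated below 0. The values were -0.219 (r) and -0.311 (rho) for Cy5 array 1 with Cy3 array 2, and -0.069 and -0.12 for Cy5 array 2 with Cy3 array 1. Since the swapped pairs of the 2 replicates differed in sign, these values settle neither the numerator nor whether the files hold dye ratios or sample ratios. A positive turned value is therefore called the positive side and is assigned to neither IP. Values thus describe a probe against the middle of its own array. The probe of SF2, which encodes dASF/SF2, averaged -0.225 ± 0.095 (SD, n = 2 replicates) and was negative on 4 of 4 turned arrays (limma's adjusted p = 0.158). Whether it reads the transgene's mRNA is not known, so it does not check the labels. No array gives an expression level, so neither the tissue nor the presence of the 9 mRNAs in it could be checked from these values. The number of arrays limits the precision.

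Of the 9 genes, 8 were measured on all 4 arrays, and 7 of these 8 had a positive turned mean, where 51.3% of all tested probes did. Their turned means ran from -0.023 (hry) to 0.384 (ac), with a median of 0.147, and the median of all 12847 tested probes was 0.004. The highest means were those of the proneural genes ac, sc, l(1)sc and ato, and the lowest were those of da and hry. With the threshold for limma's adjusted p at 0.05, no member passed, and neither did any other probe: 0 of 12847 passed, or 0%. With the replicate number as a block on the 4 arrays, limma called 1119 probes, ac among them (adjusted p = 0.0408) and no other member. Without Cy5 array 1 184 probes passed and without Cy3 array 1 66 did, none of them a member. An unadjusted p under 0.05 was found for 4 members, all on the positive side (ac, sc, l(1)sc and ato), where 9.57% of all tested probes had one on that side and 23.2% on either side. This count was 1 of 8 without Cy5 array 1 and 1 of 8 without Cy5 array 2, where 14.5% and 12.2% of all probes in those fits had such a p on either side, so there the members' share is near that of all probes. In such extracts fewer cells of a type and less RNA per cell cannot be told apart, and neither can be separated from a difference in binding.

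**Figure D1:**
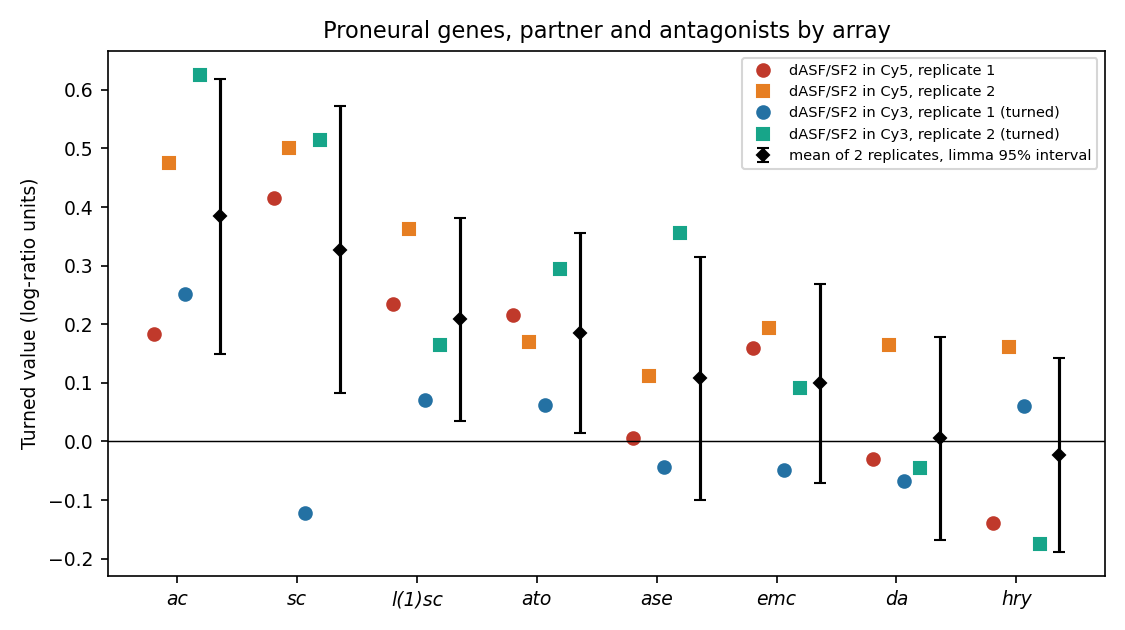
Turned log ratio (y axis, log-ratio units) of the 8 members measured on all arrays, ordered by mean; coloured points are the 4 arrays, and black diamonds with bars are the mean of the 2 replicates with limma's 95% confidence interval. The intervals of ac, sc, l(1)sc and ato lie above 0, before any adjustment for the number of probes, and those of ase, emc, da and hry cross it.

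The achaete-scute complex is a cluster of 4 bHLH genes, and all 4 were measured. For ac, a proneural gene of bristles, the turned values were 0.184 and 0.476 on Cy5 arrays 1 and 2 and 0.251 and 0.626 on Cy3 arrays 1 and 2. All 4 were positive, and both arrays of replicate 2 lay above both arrays of replicate 1. The mean was 0.384 ± 0.236 (SD, n = 2 replicates), with a 95% confidence interval of 0.150 to 0.619, and only 97 of the 12847 tested probes (0.755%) had a higher mean. The unadjusted p for ac by limma was 0.00708 and the adjusted p was 0.124.

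For sc, which acts beside ac in the same bristles, the turned values were 0.416 and 0.501 on the Cy5 arrays and -0.122 and 0.515 on the Cy3 arrays. Cy3 array 1 thus stood apart from the other 3, which lay within 0.1 of one another. The mean was 0.328 ± 0.255 (SD, n = 2 replicates), with 222 probes (1.73%) higher and an adjusted p of 0.149 by limma. It was 0.193 without Cy5 array 1 and 0.462 without Cy3 array 1, the widest such range among the members. On Cy3 array 1 sc was the lowest of the 8 members, and on both Cy5 arrays it was the highest.

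For l(1)sc, the member of the complex best known from the embryonic nervous system, the turned values were 0.234 and 0.363 on the Cy5 arrays and 0.071 and 0.165 on the Cy3 arrays. All 4 were positive, with the Cy5 arrays above the Cy3 arrays. The mean was 0.208 ± 0.079 (SD, n = 2 replicates) and the adjusted p by limma was 0.171. For ase, a marker of neural precursors that acts after the proneural genes, the values were 0.006 and 0.112 on the Cy5 arrays and -0.043 and 0.355 on the Cy3 arrays. Cy3 array 2 lay well above the other 3, and the mean of 0.108 ± 0.178 (SD, n = 2 replicates) was smaller than its spread. It was between 0.047 and 0.168 when 1 array was left out.

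The 4 genes lie in the order ac, sc, l(1)sc, ase in the RefSeq table of the fly genome (Release 6), and their turned means had that same order, highest for ac. This order is a description: the confidence intervals of the 4 genes overlap. The genes beside the complex were set next to them, a choice made after the values were seen. Of 11 protein-coding genes that are no members and lie within the complex or among the 5 on each side of it, 7 were tested. Their turned means had a median of 0.063 and ran from -0.083 (y, a gene of cuticle pigmentation next to ac) to 0.289 (Cyp4g1, a cytochrome P450 gene of hydrocarbon synthesis next to ase). Cyp4g1 had values of 0.241 and 0.540 on the Cy5 arrays and 0.051 and 0.323 on the Cy3 arrays, and its mean lay between those of sc and l(1)sc. It was the 1 gene of the 7 with an unadjusted p under 0.05 (adjusted p = 0.150 by limma), where 23.2% of all tested probes had one. The remaining 6 had means of 0.084 or below.

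**Figure D2:**
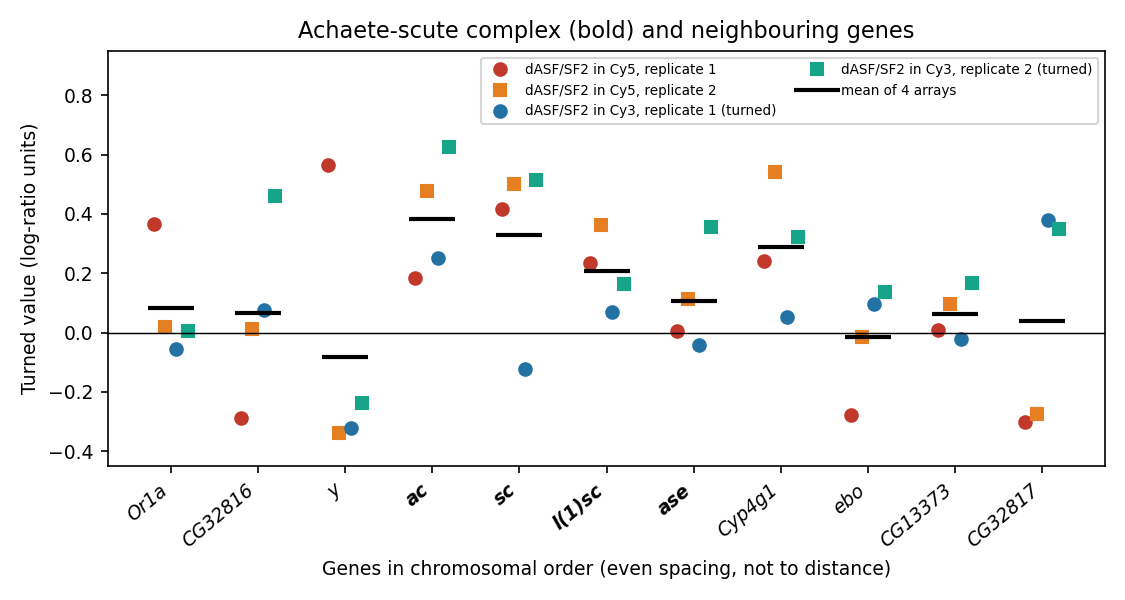
Turned log ratio (y axis, log-ratio units) of the achaete-scute genes (bold) and of the tested neighbours in chromosomal order along the x axis, evenly spaced; points are the 4 arrays and bars the mean. The means step from 0.384 (ac) to 0.108 (ase), Cyp4g1 stands at 0.289, and y next to ac at -0.083.

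Outside the complex, ato had turned values of 0.215 and 0.170 on the Cy5 arrays and 0.063 and 0.295 on the Cy3 arrays. All 4 were positive and within 0.232 of one another. The mean was 0.186 ± 0.066 (SD, n = 2 replicates), with a 95% confidence interval of 0.015 to 0.357. Of all tested probes, 9.79% had a higher mean, and the adjusted p by limma was 0.197. The 3 genes whose values lay closest to those of ato, by Euclidean distance over the 4 arrays among 10849 probes with 1 symbol, were Cap-H2, a condensin subunit gene (distance 0.054), CG12560 (0.068) and mRpS24, a mitochondrial ribosomal protein gene (0.073). With 4 points per gene and so many probes compared, such closeness is a description only. For amos, a proneural gene of olfactory sense organs related to ato, a value was given on 1 array alone, -0.209 on Cy5 array 2, where 17.2% of the measured probes were lower. It was not tested, and it had the sign opposite to the other 8 genes on that array.

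The partner and the antagonists lay nearer to 0. For da, the turned values were -0.030 and 0.164 on the Cy5 arrays and -0.067 and -0.046 on the Cy3 arrays. Only Cy5 array 2 was positive, and the mean was 0.005 ± 0.076 (SD, n = 2 replicates), with a 95% confidence interval of -0.168 to 0.178 and 49.6% of the tested probes higher. For emc, the values were 0.160 and 0.194 on the Cy5 arrays and -0.049 and 0.092 on the Cy3 arrays. The 2 Cy5 arrays stood above both Cy3 arrays, and the mean was 0.099 ± 0.062 (adjusted p = 0.434 by limma), between 0.047 and 0.152 when 1 array was left out. For hry, the values were -0.139 and 0.161 on the Cy5 arrays and 0.060 and -0.175 on the Cy3 arrays. The signs split evenly, and both replicates averaged close to 0 (-0.040 and -0.007).

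The 3 genes da, emc and hry had turned means of -0.023 to 0.099, and ac, sc, l(1)sc and ato had means of 0.186 to 0.384. The groups were set apart after the means were seen, with the 4 highest in 1 group, so their ranges could not overlap. Left out were ase, at 0.108, near emc, and amos, a proneural gene with a value on 1 array alone (-0.209). No test was made of the difference between the groups. The 95% interval of emc reached 0.269, above the means of ato and l(1)sc. Those of da and hry reached 0.178 and 0.142, above the mean of ase and below the means of ac, sc, l(1)sc and ato. Since the latter were picked for their high means, this is a description only. The intervals of ac, sc, l(1)sc and ato in turn began at 0.015 (ato) to 0.150 (ac), so each overlapped those of da, emc and hry, except that of ac with hry.

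A sign shared by 4 of 4 turned arrays was found for 3 members (ac, l(1)sc and ato), positive in each, where 12.1% of all tested probes were positive on all 4 and 16.1% negative. By replicate, ac had 0.217 and 0.551, sc 0.147 and 0.508, l(1)sc 0.152 and 0.264, and ato 0.139 and 0.233. Replicate 2 gave the higher value for each of the 8 members. The share of all tested probes with that order was not counted, so it cannot be called a trait of the members. For ase and da the replicates differed in sign, at -0.019 and 0.234 and at -0.049 and 0.059. On single arrays the median of the 8 members was 0.172 and 0.182 on the Cy5 arrays, 0.009 on Cy3 array 1 and 0.230 on Cy3 array 2. Cy3 array 1 was also the array with fewest measured probes, 13815, against 14616 to 15330 on the other 3. Cy3 array 2, of replicate 2, had the widest spread over all its probes (SD 0.342, against 0.247 to 0.269). It also held the most exact zeros, 811, against 0 to 35. The part of these array differences in the members' values was not tested.

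**Figure D3:**
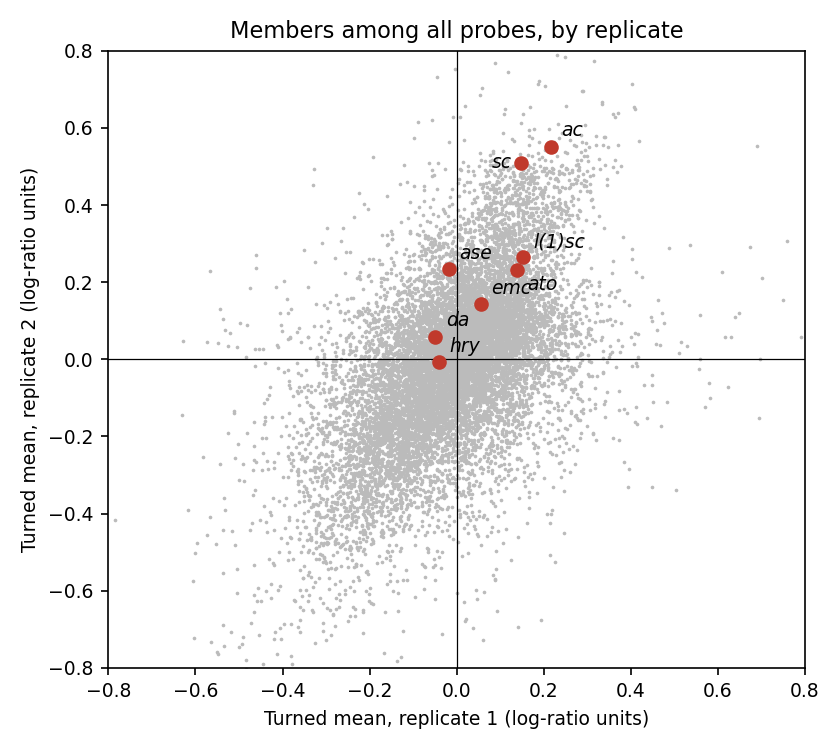
Turned mean of replicate 1 (x axis) against replicate 2 (y axis), in log-ratio units; grey points are all tested probes (41 lie outside the axes) and red points are the 8 members. The red points of ac and sc lie highest, at 0.551 and 0.508 in replicate 2, and ase, da and hry lie left of 0 in replicate 1.

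The files may instead hold sample ratios that were turned before deposit. In that case the unturned mean is the IP comparison and the turned mean is a dye effect. Read that way, the members lay close to 0: their unturned means ran from -0.054 (ac) to 0.131 (sc), with a median of 0.048, beside 0.009 for all tested probes. None of the 8 had an unadjusted p under 0.05 by limma, where 5.57% of all tested probes had one, and their adjusted p-values ran from 0.777 to 0.989. None had 1 sign on all 4 unturned arrays, as 13.6% of all tested probes did. For ac, l(1)sc and ato this was fixed by their shared sign on the turned arrays, so the count is no separate result. The values of ac show how the reading matters. Its deposited values were 0.194 and 0.489 on the Cy5 arrays and -0.245 and -0.626 on the Cy3 arrays, and the sign followed the dye orientation on every array.

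**Figure D4:**
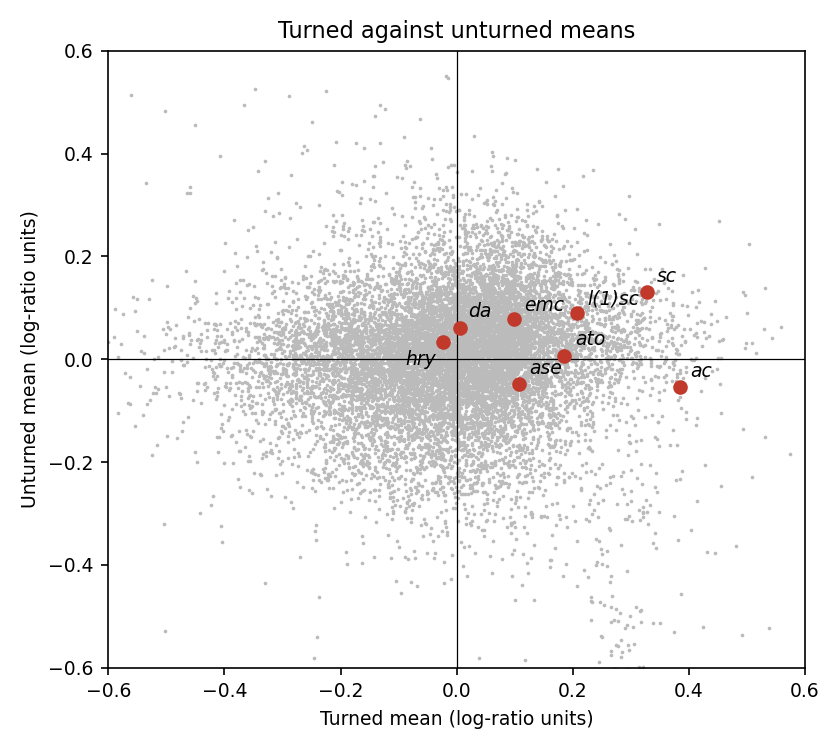
Turned mean (x axis) against unturned mean (y axis), in log-ratio units, of all tested probes (grey, 195 outside the axes) and of the 8 members (red). The members spread along the turned axis, from -0.023 to 0.384, and between -0.054 and 0.131 on the unturned axis.

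Genes that act with the proneural factors were examined as lists, counted over the probes tested. Of the targets and lateral-inhibition genes, 7 of 16 listed genes were tested, 5 with positive and 2 with negative turned means, and their median was 0.153. Unadjusted p-values under 0.05 by limma were found for 3 that were positive and for 1 that was negative, phyl. The arrays of phyl disagreed, with turned values from -0.545 to 0.170. Such a p was found for 9.57% of all tested probes on the positive side and 13.6% on the negative side. Tom, a Bearded-family inhibitor of Neuralized, had 0.239 ± 0.111 (SD, n = 2 replicates) and was positive on all 4 arrays. The gene sens, for a zinc finger partner of proneural proteins in sense organ precursors, had 0.221 ± 0.202 and was negative on Cy5 array 1. The gene kuz, for the metalloprotease that cleaves Notch, had -0.226 ± 0.417, a value carried by Cy3 array 1 at -0.784. The smallest adjusted p in this list was 0.152.

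The bHLH repressors of the Enhancer of split complex, which Notch signalling switches on to silence proneural genes, were all on the positive side. Of 7 listed genes 5 were tested, with turned means of 0.064 to 0.361 and a median of 0.101. E(spl)m3-HLH had 0.534 and 0.501 on the Cy5 arrays and 0.085 and 0.325 on the Cy3 arrays, with a mean of 0.361 ± 0.073 (SD, n = 2 replicates) and an adjusted p of 0.117 by limma. This was near the value of ac. E(spl)m5-HLH followed at 0.196 ± 0.148 and E(spl)mdelta-HLH at 0.101 ± 0.066, and 2 of the 5 had an unadjusted p under 0.05. Of all tested probes, 51.3% had a positive mean and 9.57% had such a p on the positive side.

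Relatives of Hairy and their co-repressors included the most negative probes of the pathway. All 6 listed genes were tested with 8 probes, 3 positive and 5 negative, with a median of -0.121. Both probes of gro, the co-repressor that Hairy recruits, were negative on all 4 turned arrays, at -0.261 ± 0.018 and -0.241 ± 0.039 (SD, n = 2 replicates), with adjusted p-values of 0.126 and 0.138 by limma. Both probes of CtBP, another co-repressor of Hairy, were negative on all 4 arrays too, at -0.174 and -0.132. Hey, a Hairy-related bHLH gene, had 0.222 ± 0.064. In this list 3 probes on the negative and 1 on the positive side had an unadjusted p under 0.05, where 13.6% and 9.57% of all tested probes did.

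Of 16 other tissue-specific bHLH genes 10 were tested. All 10 had positive turned means, as 51.3% of all tested probes did, from 0.007 to 0.350, with a median of 0.114. The highest was tap, a bHLH gene of neural cells, at 0.350 ± 0.047 (adjusted p = 0.117 by limma). Its arrays disagreed, with -0.343 and 0.017 on the Cy5 arrays and 1.110 and 0.618 on the Cy3 arrays, and its unturned mean was -0.514. It was the 1 gene of the 10 with an unadjusted p under 0.05, near the 9.57% of all tested probes on the positive side. The genes nau and twi, bHLH genes of muscle, had 0.166 ± 0.226 and 0.135 ± 0.173. Of 13 upstream regulators 12 were tested, 6 positive and 6 negative, with a median of -0.007. The homeobox genes of the Iroquois complex split: mirr had 0.234 ± 0.309 and ara, an activator of ac and sc in the wing disc, 0.188 ± 0.078, while caup had 0.010. The ligand gene hh, which drives the furrow and ato, had 0.182 ± 0.153.

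**Figure D5:**
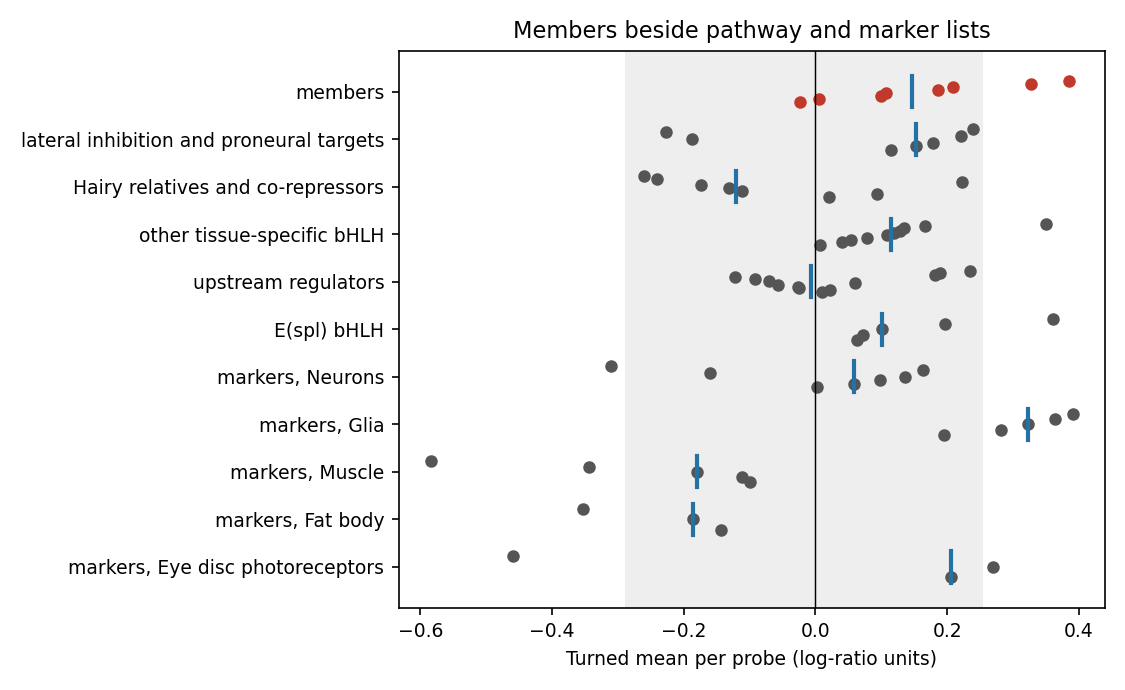
Turned mean of each tested probe (x axis, log-ratio units) for the members (red) and for pathway and marker lists (grey), with the list median as a blue bar; the shaded band holds the middle of all tested probes, from the 5th percentile (-0.288) to the 95th (0.253). Among the members ac and sc lie right of the band, and the glial markers have the highest median, 0.322.

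Markers of tissues in the anterior larva were read in the same way. All 5 tested glial markers of 6 listed lay on the positive side, between 0.196 (moody) and 0.391 (Gs2). Each had an unadjusted p under 0.05, as 9.57% of all tested probes did on that side. All 5 probes of muscle markers were negative, between -0.584 (a probe of sls) and -0.100 (up), and so were all 3 tested fat body markers, between -0.353 (Fbp2) and -0.143 (Fbp1). Neuronal markers were spread from -0.310 to 0.164 over 7 probes, and the 3 probes of brp, a synaptic protein gene, differed in sign. Among eye disc markers, sev had -0.460 ± 0.152 (SD, n = 2 replicates), lz 0.270 ± 0.146 and chp 0.206 ± 0.063. The glial markers lay on the side of ac, sc, l(1)sc and ato with sizes as large, and their part in these values was not tested.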

How the data were processed

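The authors deposited 1 log ratio per probe and array, of unstated base, numerator, dye normalisation and software (not given in the sources used here); no scanner signals were used. The value -10000, found in 73 cells, was read as missing, and most missing cells held no number as deposited. Of the 15744 probes listed, 13815 to 15330 had a value on an array. Probes were named through the platform annotation: 13147 had 1 symbol, 99 several and 2498 none. Of the 13147, 12519 were found in RefSeq by their Entrez identifier, and 0 symbols changed. Arrays were centred on the median, the Cy3 arrays turned, the 2 arrays of a replicate averaged, and the mean of 2 replicates tested against 0 with limma 3.58.1 in R 4.3.3 (lmFit, eBayes; Benjamini-Hochberg over 12847 probes, threshold 0.05). The description of the series, not the sample titles, calls arrays of 1 replicate number dye swaps, which is the source of the pairing. In each list at most 3 genes of the largest absolute turned mean were named. Others were named only where a count or comparison singles them out, after their values were seen. Such genes are phyl, Sidpn, dpn, caup, elav, moody, up and the neighbours of the complex. Members and lists were chosen with earlier results of these data known. List counts cover the genes with a value on all 4 arrays, many of them counted without being named. The remaining listed genes were not analysed here. No sequences or coordinates are printed, since no sequence table and no array build were used. Plots were made in Python 3.11.15 with matplotlib 3.10.9.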

Additional observations from a re-analysis of the deposited data

How the results depend on the processing

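Under the alternatives run, no member passed the threshold of 0.05 for limma's adjusted p, except ac (adjusted p = 0.0408) in the fit of 4 arrays with the replicate number as a block. That fit called 1119 of 12847 probes on the turned scale and 0 unturned, at estimated correlations of -0.408 and -0.414 within a block; a negative correlation makes its standard errors smaller. Over all probes, 26 passed after quantile normalisation, 3 with exact zeros read as missing, 3 with 1 value per gene, and 0 to 184 when 1 array was left out. With the arrays not turned, 0 passed in the 4 fits without 1 array and without further centring; the other settings were not run unturned. Members with an unadjusted p under 0.05 numbered 4 of 8 (23.2% of all probes), 3 when 1 array per replicate sufficed (17%), and 0 with the arrays not turned (5.57%). They numbered 1 without Cy5 array 1 (14.5%), 1 without Cy5 array 2 (12.2%) and 3 without either Cy3 array (19.4% and 19.2%). With the arrays not turned the means of ac (-0.054), ase (-0.049) and hry (0.034) reversed. When 1 array was left out, only da and hry reversed: da was at -0.004 without Cy5 array 1 and -0.047 without Cy5 array 2, (range -0.047 to 0.058 over the 4 fits), and hry at 0.027 without Cy5 array 1 and 0.061 without Cy3 array 2 (range -0.107 to 0.061). Means of ac stayed between 0.347 and 0.422, of ato between 0.148 and 0.224 and of l(1)sc between 0.159 and 0.258 when 1 array was left out. Those of sc (0.193 to 0.462), ase (0.047 to 0.168) and emc (0.047 to 0.152) differed by a factor over 1.5 from the gene's mean over all 4 arrays in at least 1 fit. The cause of these changes was not tested. Brightness over background was not analysed here, so dim probes could not be set apart.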

Other observations

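Several genes of the pathway, chosen after their values were seen, had arrays that disagreed more than those of the members. The probe of dpn, a Hairy-related gene of neural stem cells, had turned values of -0.627 and 0.273 on the Cy5 arrays and 0.222 and 0.507 on the Cy3 arrays. The probe of Sidpn, a relative of dpn, had -0.469 and -0.329 on the Cy5 arrays and 0.445 and -0.091 on the Cy3 arrays. The neuronal marker elav had 0.890 on Cy5 array 2 and -0.045, -0.052 and -0.401 on the others. For phyl, a target of proneural factors in sense organ precursors, both replicates averaged -0.188, although its single arrays ran from -0.545 to 0.170. A small spread between the 2 replicates can therefore hide a wide spread between the arrays that were averaged, as also for tap, whose replicates differed by an SD of 0.047 and whose arrays ran from -0.343 to 1.110.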
